A study of Mus musculus with 60 samples.

Results

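TRBV3, TRBV4, TRBV14, TRBV20 and TRBV30 are 5 of the 29 V segments of the mouse T cell receptor (TCR) beta chain found in the libraries described here. In the older naming they are V beta 16, 10, 13, 15 and 18. They were chosen by name, and every clonotype assigned to any of them was kept, which gave 24291 of the 168222 clonotypes (14.4%) listed for CD4 and CD8 T cells. A clonotype was a CDR3 amino acid sequence together with its V and J segment, and the CDR3, complementarity determining region 3, is the loop encoded across the V to J junction. The usage of a segment was the summed frequency of its clonotypes as a percentage of the frequency of all clonotypes listed for the same library.

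The libraries came from a study of graft-versus-host disease (GVHD) after allogeneic hematopoietic cell transplantation (HCT), which asked how donor T cells lacking STAT3, a transcription factor, or both STAT3 and the inhibitory receptor PD-1 behaved in the target tissues. Donors were C57BL/6 mice that were wild type (WT), STAT3-deficient (STAT3ko, deletion of floxed Stat3 in T cells by Cre under the CD4 promoter) or deficient in STAT3 and PD-1 (STAT3koPD-1ko, with PD-1 missing in all cells). CD4-driven Cre acts in developing T cells of both lineages. All recipients were lethally irradiated WT BALB/c mice and all received T cell-depleted marrow of WT C57BL/6 mice besides the T cells. Donor-type (H-2Kb+) TCR beta+ CD4+ and CD8+ T cells were sorted from liver and gut on day 6 after HCT, each sample combining lymphocytes of 3 recipients. T cells before HCT came from spleen. For each of CD4 and CD8 there were 3 libraries before HCT (1 of each genotype), 6 from liver and 6 from gut (2 of each genotype and tissue), 30 libraries in all. The study's methods name 2 batches, with 3 mice pooled in each, but do not tie them to the replicate numbers, and p-values measure only the spread between these samples. The tables hold receptor sequences only, and the CD4 and CD8 labels could not be checked against marker genes.

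The beta chain gene is assembled in the thymus by joining a V, a D and a J segment, and most T cells keep a single productive join. The V segment encodes the CDR1 and CDR2 loops, which mostly lie over the helices of the major histocompatibility complex (MHC) molecule, and the first residues of CDR3, whose centre mostly lies over the peptide. CD4 T cells are selected on MHC class II and CD8 T cells on class I, and use of V beta segments is known to differ between the lineages. It also differs between mouse strains, where superantigens of endogenous retroviruses delete T cells by their V beta.

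In the GENCODE annotation of GRCm38 all 5 are TR_V genes of 2 exons on the plus strand of chromosome 6. Trbv3 (chr6:41048290-41048828) and Trbv4 (chr6:41059394-41059886) are genes 3 and 4 of the 35 Trbv genes in order along the locus, 484 and 473 kb before Trbd1, the first D segment. Trbv14 (chr6:41135145-41135616) is gene 18 and Trbv20 (chr6:41188273-41188977) gene 24. Trbv30 (chr6:41281376-41281990) is gene 34 and the nearest of the 5 to Trbd1, at 251 kb. The last 30 bases of each coding segment are shown because they set how its CDR3 begins, and the capitals mark the cysteine codon at which CDR3 starts.
Trbv3: gtgtacttcTGTgccagcagcttagccaca
Trbv4: tgctgtgtatctcTGTgccagcagctaaga
Trbv14: cagccacctatctcTGTgccagcagtttct
Trbv20: cagaggcttatatctcTGTggtgctaggga
Trbv30: cagcagtatctatttcTGTagttctagaga
The first 6 bases from the cysteine codon were found at the start of 98.0% (TRBV20) to 99.8% (TRBV14) of the CDR3 sequences that the tables assign to each segment. TRBV3, TRBV4 and TRBV14 share the bases tgtgccagcag and their CDR3 began with CASS in 83.9% to 95.7% of clonotypes. TRBV20 and TRBV30 each have a start of their own. CGAR opened 65.5% of the CD4 and 74.0% of the CD8 clonotypes of TRBV20, and CSSR opened 66.5% and 63.6% of those of TRBV30.

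Each frequency is a fraction of library reads, with no read counts given, and sequencing depth is unknown. Only clonotypes found in at least 2 libraries of a join were listed, and the listed clonotypes made up 93.2% ± 4.44 (SD, n = 3) of CD4 reads before HCT and 90.7% ± 2.78 (n = 6) in liver, but 66.1% ± 18.3 (n = 6) in gut. The gut replicate 2 libraries stood apart, with a mean of 49.5% listed in CD4 and 54.8% in CD8, against 82.8% and 89.0% in gut replicate 1. All usages share the total of their library, and in CD4 gut that total was unlike the others. TRBV26 and TRBV23 together took 36.1% ± 2.79 (n = 6) of CD4 usage in gut, 12.8% ± 2.22 (n = 6) in liver and 6.73% ± 0.902 (n = 3) before HCT. In CD8 the site means were only 1.20% to 1.71%, and single libraries held 0.888% to 2.57%. Of the 17815 CD4 clonotypes of TRBV26, 17810 had a CDR3 that did not run from C to F or W. Among the 5 segments only 10 of 11060 CD4 and 15 of 13231 CD8 clonotypes were of that kind. Values for CD4 gut are therefore given also with TRBV26 and TRBV23 left out of the total.

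By mean usage TRBV14 was the most used of the 5 in both lineages, although TRBV3 exceeded it in the STAT3ko (3.85% against 2.83%) and STAT3koPD-1ko (3.93% against 1.88%) libraries of CD4 gut replicate 2. In that STAT3koPD-1ko library TRBV4 (2.16%) exceeded TRBV14 as well. Over the 15 libraries of each table the mean of TRBV14 was 5.46% in CD4 (rank 8 of 28 segments) and 8.56% in CD8 (rank 3 of 26). TRBV3 and TRBV4 lay close together, at 2.84% and 2.88% in CD4 and 2.77% and 2.49% in CD8, and their ranges over libraries overlapped in each. TRBV20 followed at 1.82% in CD4 and 0.730% in CD8, and TRBV30 was the least used at 0.237% and 0.356%. These means are over sites that differ, and before HCT the CD4 mean of TRBV20 (2.61%) was above that of TRBV3 (2.44%). Together the 5 segments took 16.2% ± 2.01 (n = 3) of CD4 usage before HCT, 14.8% ± 0.909 (n = 6) in liver and 10.2% ± 1.099 (n = 6) in gut. The same sum in CD8 was 14.2% ± 1.98, 14.5% ± 1.00 and 15.6% ± 1.25. As a share of the reads outside TRBV26 and TRBV23, the CD4 sums were 17.4%, 17.0% and 15.9%.

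**Figure D1:**
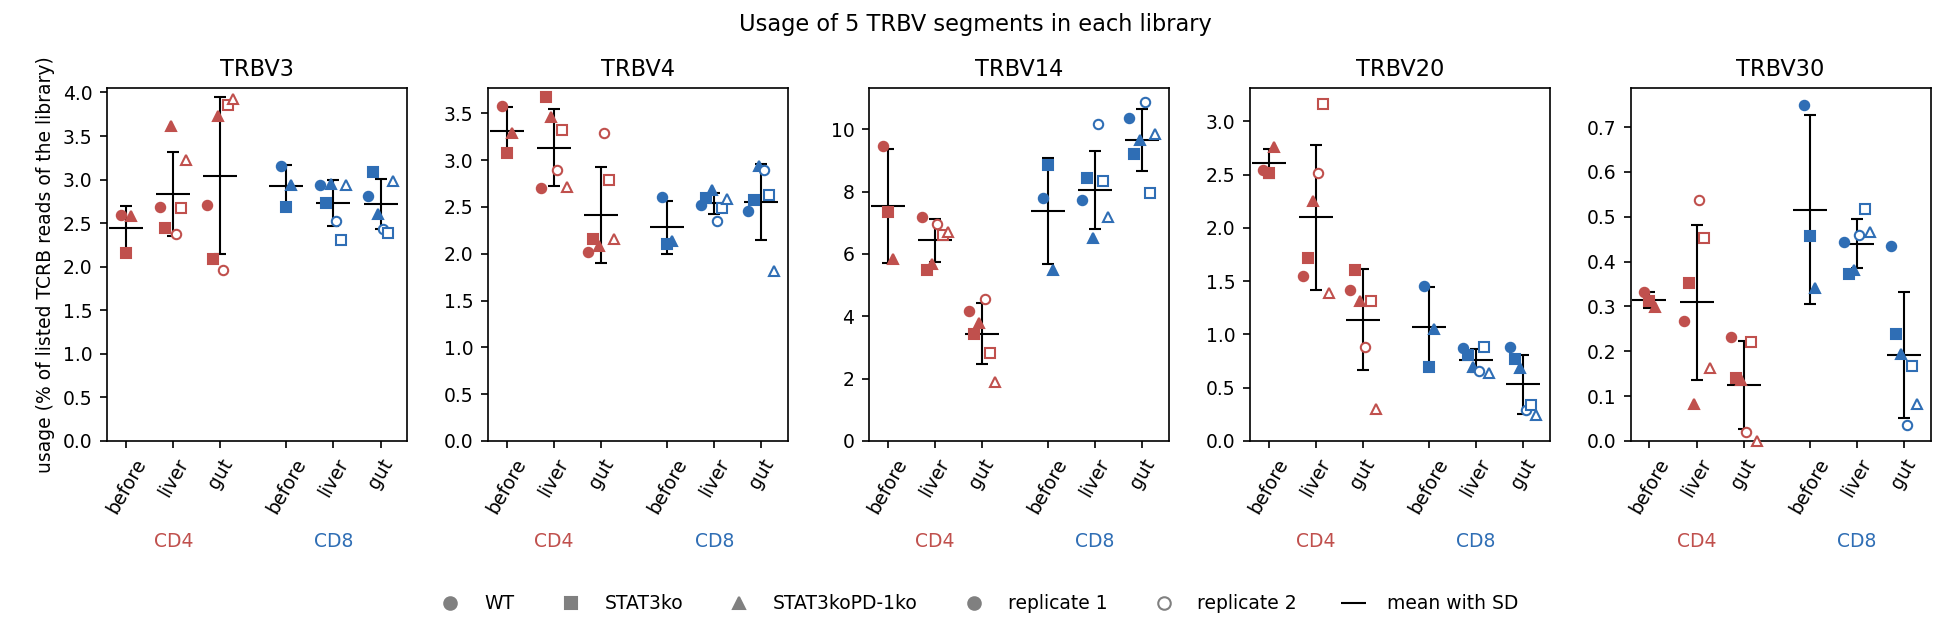
Usage of the 5 segments in every library (percent of listed reads on the vertical axis, an axis of its own for each segment) for CD4 and CD8 T cells before HCT (spleen), in liver and in gut, with filled and open points for replicates 1 and 2 and bars for the mean ± SD. TRBV14 in CD4 gut (1.88% to 4.55%) lies below every CD4 liver library (5.48% to 7.18%) on this total, but not without TRBV26 and TRBV23 (2.92% to 6.89% against 6.20% to 8.43%), while in CD8 gut it reaches 10.9%.

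TRBV14 fell in gut CD4 T cells as compared with liver CD4 T cells. In liver its usage was 7.18% and 6.95% in the 2 WT libraries, 5.48% and 6.60% in STAT3ko and 5.69% and 6.69% in STAT3koPD-1ko. In gut it was 4.18% and 4.55% in WT, 3.44% and 2.83% in STAT3ko and 3.77% and 1.88% in STAT3koPD-1ko. As a share of all listed reads every gut library lay below every liver library. Without TRBV26 and TRBV23 in the total the ranges overlapped, at 2.92% to 6.89% in gut and 6.20% to 8.43% in liver. Reads come from RNA, so fewer T cells with a segment and less receptor RNA per cell cannot be told apart. The difference of gut minus liver on the log2(percent + 0.1) scale was -0.93 (SE 0.159, limma, Benjamini-Hochberg adjusted p = 0.000184), the second most negative of 21 segments tested. As compared with T cells before HCT, where its usage was 5.82%, 7.36% and 9.46%, the gut libraries were again all lower and the difference was -1.14 (limma, adjusted p = 4.34e-05), or -0.61 (adjusted p = 0.0164) without TRBV26 and TRBV23. On that latter total the gut range overlapped with the 6.19% to 10.1% seen before HCT. Liver and gut were here set against the same 3 libraries before HCT. Liver minus before HCT did not pass the test for TRBV14.

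The size of that difference depended on the total. With TRBV26 and TRBV23 left out of the total, gut minus liver of TRBV14 was -0.49 (limma, adjusted p = 0.0258), and with only CDR3 that run from C to F or W it was -0.63 (adjusted p = 0.00826). Over all reads of the library it was -1.41 (adjusted p = 0.000388). Without the gut replicate 2 libraries it was -0.74 (adjusted p = 7.15e-05). When each clonotype was counted once, whatever its frequency, the difference was -0.13 (adjusted p = 0.0807) and no longer passed the test. The number of TRBV14 clonotypes in CD4 gut ranged from 107 to 930, and from 434 to 834 in liver.

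In CD8 T cells TRBV14 moved the other way. Its usage was 6.52% to 10.2% in the 6 liver libraries (median 8.02%) and 7.96% to 10.9% in the 6 gut libraries (median 9.75%), so that the ranges overlapped and 2 gut libraries exceeded all of liver. Gut minus liver was 0.26 (SE 0.0946, limma, adjusted p = 0.0492), and gut minus before HCT was 0.40 (adjusted p = 0.0249). The call of gut minus liver was lost with a pseudocount of 0.01 (0.27, limma, adjusted p = 0.0519), with CDR3 from C to F or W (0.28, adjusted p = 0.0551), with clonotypes of at least 3 libraries (0.24, adjusted p = 0.136) and with each clonotype counted once (0.14, adjusted p = 0.0746). Without the liver replicate 1 libraries it was 0.18 and did not pass (limma, adjusted p = 0.226). It was also lost in 7 of 12 refits without 1 library, at 0.22 to 0.29. These left out the WT or STAT3koPD-1ko library of liver replicate 1 or of gut replicate 2, the STAT3ko or STAT3koPD-1ko library of liver replicate 2, or the STAT3koPD-1ko library of gut replicate 1. The call of gut minus before HCT was lost without the WT library before HCT (0.38) or the STAT3koPD-1ko one (0.26, limma, adjusted p = 0.218). Over all reads the sign of both turned, at -0.17 (limma, adjusted p = 0.458) against liver and -0.07 (adjusted p = 0.857) against before HCT. The test of the difference between lineages, the gut minus liver difference in CD8 minus that in CD4, gave 1.19 for TRBV14 (SE 0.188, limma, adjusted p = 1.45e-05), the largest of 21 segments. It was 0.77 (adjusted p = 0.00299) without TRBV26 and TRBV23, 1.23 over all reads and 0.27 (adjusted p = 0.0238) with each clonotype counted once. In gut alone, TRBV14 usage in every CD8 library exceeded that in every CD4 library.

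TRBV20 fell with TRBV14 in gut CD4 T cells. Its usage was 1.39% to 3.17% in CD4 liver (median 1.98%) and 0.304% to 1.605% in CD4 gut (median 1.32%), so that 4 of 6 gut libraries lay below all of liver, and all 6 lay below the 2.52%, 2.54% and 2.76% seen before HCT. Gut minus liver was -0.91 (SE 0.289, limma, adjusted p = 0.0111) and gut minus before HCT was -1.26 (adjusted p = 0.00258). The lowest value, 0.304%, was in STAT3koPD-1ko gut replicate 2. Without the gut replicate 2 libraries gut minus liver was -0.46 (adjusted p = 0.0440), and without TRBV26 and TRBV23 in the total it was -0.50 (adjusted p = 0.196), with 1.57% to 3.598% in liver and 0.472% to 2.66% in gut. Gut minus before HCT on that total was -0.77 and did not pass either (limma, adjusted p = 0.0833). With each clonotype counted once it passed, at -0.58 (adjusted p = 0.0154), but not with CDR3 from C to F or W (-0.64, limma, adjusted p = 0.115) or with clonotypes of at least 3 libraries (-0.63, adjusted p = 0.0691).

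In CD8 T cells TRBV20 usage depended on the gut replicate. It was 0.684%, 0.766% and 0.885% in gut replicate 1 and 0.240%, 0.292% and 0.337% in gut replicate 2, against 0.635% to 0.878% in liver. Gut minus liver was -0.55 (SE 0.254, limma, adjusted p = 0.0917) with all libraries, the same difference passed with liver and gut paired by replicate number (SE 0.188, adjusted p = 0.0382), and it was 0.04 (adjusted p = 0.718) without gut replicate 2. It passed without any 1 library of gut replicate 1, at -0.73 without WT, -0.66 without STAT3ko and -0.70 without STAT3koPD-1ko. Gut minus before HCT was -0.95 (adjusted p = 0.0250), and -0.37 (adjusted p = 0.0823) without gut replicate 2. That call was also lost without the WT library before HCT (-0.74) or the STAT3koPD-1ko one (-0.85), without the liver replicate 1 libraries (-0.95, limma, adjusted p = 0.0582), and with each clonotype counted once (-0.54, adjusted p = 0.0893). The gut-liver difference of TRBV20 was not shown to differ between CD8 and CD4, at 0.36 (limma, adjusted p = 0.428), or -0.04 (adjusted p = 0.974) without TRBV26 and TRBV23.

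TRBV30 was too rare for the main tests, where the mean usage had to reach 0.5%. In CD4 it was 0.298%, 0.311% and 0.333% before HCT, 0.0823% to 0.537% in liver (median 0.310%) and 0.0212% to 0.232% in 5 gut libraries, and it was listed at 0 in STAT3koPD-1ko gut replicate 2. All 6 CD4 gut libraries were below the 3 libraries before HCT. In CD8 it was 0.341%, 0.458% and 0.749% before HCT, 0.371% to 0.516% in liver and 0.0357% to 0.436% in gut, where 5 of 6 libraries lay below all of liver. Without TRBV26 and TRBV23 in the total, CD4 usage of TRBV30 was 0.317% to 0.356% before HCT, 0.0918% to 0.641% in liver and 0% to 0.355% in gut, so that gut and the libraries before HCT overlapped. In fits without the filter, gut minus liver was -0.88 in CD4 (SE 0.317, limma, adjusted p = 0.0331) and -1.02 in CD8 (SE 0.297, adjusted p = 0.0374). The CD4 call was lost without TRBV26 and TRBV23 in the total, at -0.70 (SE 0.387, limma, adjusted p = 0.191). In CD8 gut TRBV30 was 0.193% to 0.436% in replicate 1 and 0.0357% to 0.167% in replicate 2. Without the gut replicate 2 libraries both calls were lost, at -0.50 in CD4 (limma, adjusted p = 0.188) and -0.52 in CD8 (adjusted p = 0.0671). A library held 0 to 62 TRBV30 clonotypes in CD4 and 6 to 112 in CD8, and single clonotypes made up as much as 81.3% of TRBV30 usage, in the STAT3koPD-1ko CD4 library before HCT.

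TRBV4 also fell in CD4 gut, whereas TRBV3 did not pass the test. TRBV4 usage was 2.71% to 3.68% in CD4 liver (median 3.11%) and 2.01% to 3.29% in CD4 gut (median 2.16%), where 4 of 6 libraries lay below all of liver. Gut minus liver was -0.37 (SE 0.139, limma, adjusted p = 0.0219), and the sign turned without TRBV26 and TRBV23, at 0.06 (adjusted p = 0.724), where gut (3.08% to 4.99%) was no longer below liver (3.08% to 4.15%). The call was lost, at -0.34 to -0.31, without the STAT3ko or STAT3koPD-1ko library of liver replicate 1 or the WT or STAT3ko library of gut replicate 1. It was also lost with the centred log-ratio (-0.21, limma, adjusted p = 0.159), with CDR3 from C to F or W (-0.08, adjusted p = 0.623), with clonotypes of at least 3 libraries (-0.33, adjusted p = 0.0645), with each clonotype counted once (-0.18, adjusted p = 0.0807) and without the liver replicate 1 libraries (-0.31, adjusted p = 0.131). Gut minus before HCT of TRBV4 was -0.46 (limma, adjusted p = 0.0150), and -0.40 or -0.42 and no longer passing without the WT or STAT3koPD-1ko library before HCT. Its sign turned as well without TRBV26 and TRBV23, at 0.07 (limma, adjusted p = 0.691). It did not pass with the centred log-ratio (-0.34, limma, adjusted p = 0.0655), with CDR3 from C to F or W (-0.10, adjusted p = 0.675) or with clonotypes of at least 3 libraries (-0.38, adjusted p = 0.0597). TRBV3 usage was 2.38% to 3.61% in CD4 liver (median 2.68%) and 1.97% to 3.93% in CD4 gut (median 3.22%), with gut libraries on both sides of the liver range. Its gut minus liver difference was 0.06 (95% interval -0.25 to 0.38, limma, adjusted p = 0.715), but 0.50 (adjusted p = 0.0115) without TRBV26 and TRBV23 and -0.42 (adjusted p = 0.0711) over all reads. Gut minus before HCT of TRBV3 was 0.26 (limma, adjusted p = 0.185), and 0.79 (adjusted p = 0.00157) without TRBV26 and TRBV23. In CD8 neither passed, with differences of -0.01 for both (limma, adjusted p = 0.940) and 95% intervals of -0.20 to 0.18 for TRBV3 and -0.24 to 0.22 for TRBV4.

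Across the 4 segments tested, 3 passed for gut minus liver in CD4, all lower in gut, where 85.7% of all 21 segments passed (5 higher and 13 lower). Without TRBV26 and TRBV23 that split was 6 higher and 3 lower, over all reads it was 3 and 14, and with CDR3 from C to F or W it was 4 and 5. Of the members, TRBV14 still passed as lower without TRBV26 and TRBV23, TRBV3 passed as higher, and TRBV4 and TRBV20 did not pass. The median difference of the 4 was -0.64 and that of the 21 was -0.46, which moved to -0.05 without TRBV26 and TRBV23 and to -0.96 over all reads. In CD8, 1 of 4 passed (2 with liver and gut paired by replicate number), where 38.9% of 18 segments did (3 higher and 4 lower, but 0 and 8 over all reads, and 1 and 3 with CDR3 from C to F or W). For gut minus before HCT, 3 of 4 passed in CD4, where 81% of segments did (5 higher and 12 lower, but 6 and 4 without TRBV26 and TRBV23, 5 and 7 with CDR3 from C to F or W, and 3 and 14 over all reads). On the total without TRBV26 and TRBV23, TRBV14 passed as lower and TRBV3 as higher here too, and TRBV4 and TRBV20 did not pass. In CD8 2 of 4 passed, where 50% did (3 higher and 6 lower, but 0 and 7 over all reads and 4 and 3 with the centred log-ratio, which sets each segment against the mean of all). The difference between lineages in gut minus liver passed for 1 of 4, where 57.1% of 21 segments passed (8 higher and 4 lower, but 1 and 4 without TRBV26 and TRBV23, 1 and 3 with CDR3 from C to F or W, and 4 and 4 with the centred log-ratio). With CD4 and CD8 paired by replicate number that difference passed for 2 of 4. For liver minus before HCT none of the 4 passed in CD4, where 9.52% of segments did, or in CD8, where 0% did (limma, with 0 of the 4 below 0.05 before adjustment in either).

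**Figure D2:**
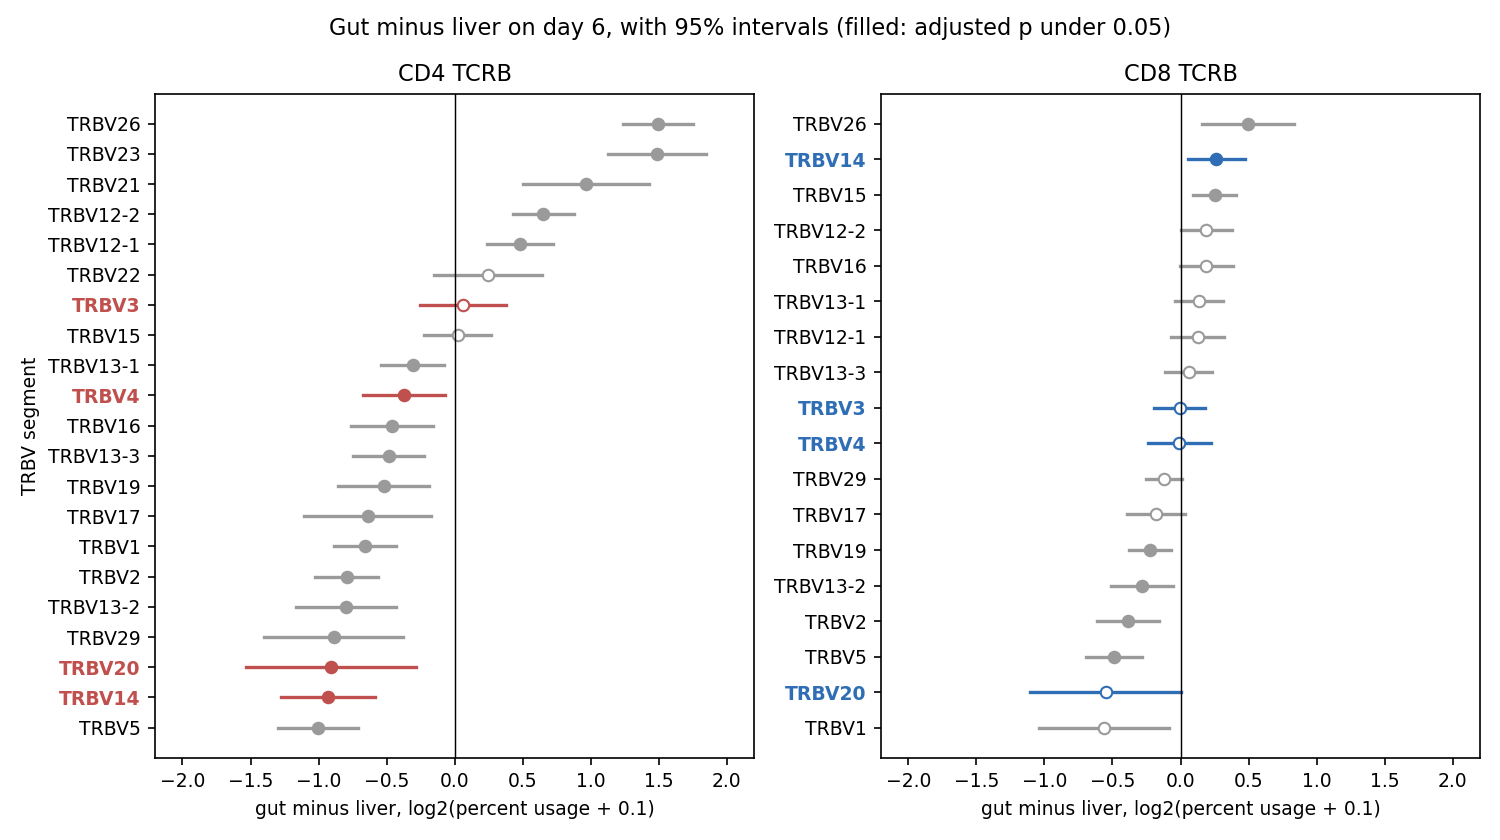
Gut minus liver difference on the log2(percent + 0.1) scale for each segment tested in CD4 (21 segments) and CD8 (18 segments), with 95% intervals from limma and the 4 tested members in colour. TRBV14 lies at -0.93 in CD4 and at 0.26 in CD8.

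**Figure D3:**
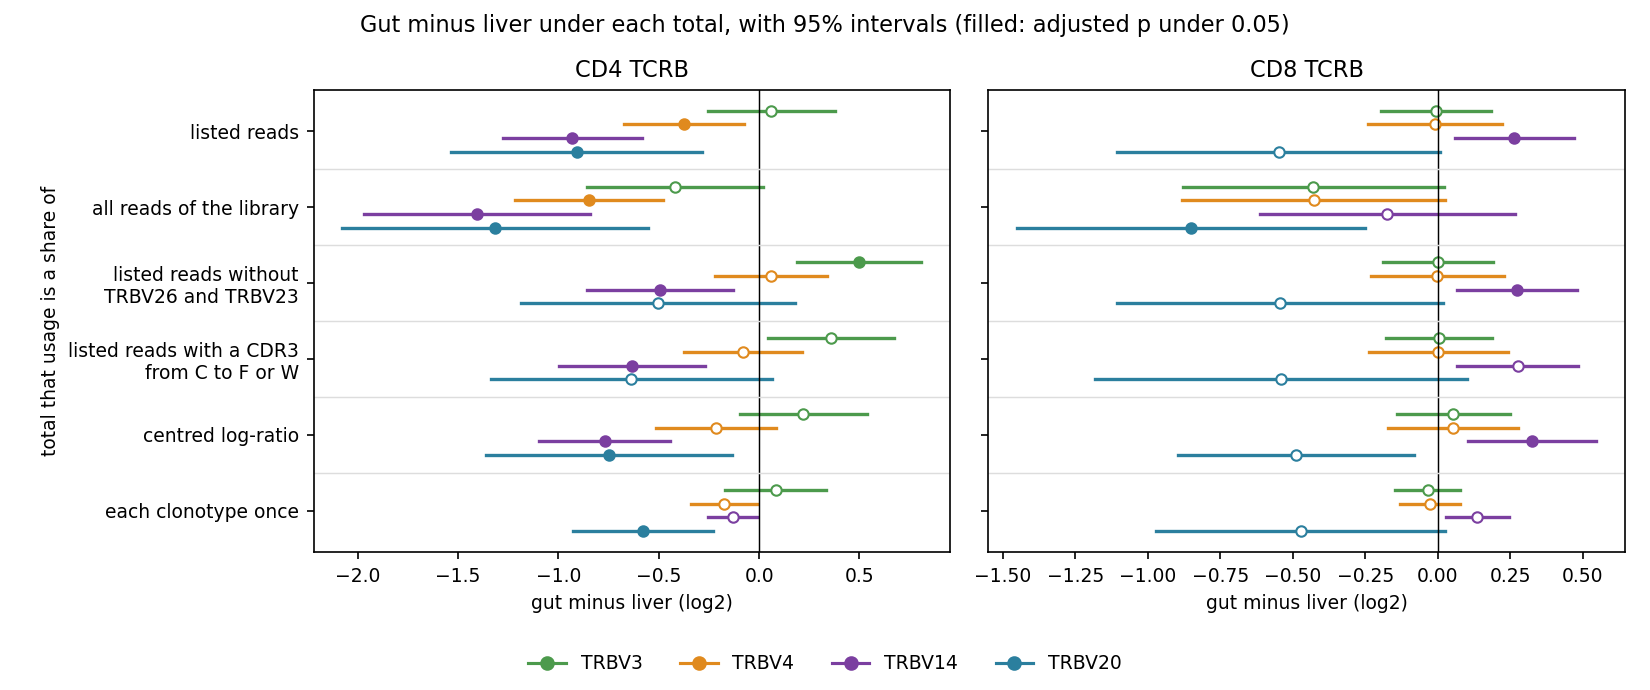
The same difference for TRBV3, TRBV4, TRBV14 and TRBV20 (horizontal axis, log2, with 95% intervals) when usage is taken as a share of 6 different totals (vertical axis), filled where the adjusted p is under 0.05. In CD4, TRBV14 is below 0 under each total and TRBV3 and TRBV4 change sign between them.

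The lineages were next compared at each site. The CD4 and CD8 tables were joined separately, but the fractions had been formed in each library before the join. TRBV20 was lower in CD8 at all sites. Its usage in spleen before HCT was 0.698%, 1.05% and 1.46% in CD8 and at least 2.52% in CD4. CD8 minus CD4 was -1.26 before HCT (limma, adjusted p = 0.00509), -1.31 in liver (adjusted p = 8.37e-05) and -0.95 in gut (adjusted p = 0.00211), and the ranges did not overlap before HCT or in liver. Without the STAT3ko CD8 library before HCT the value there was -0.92 (limma, adjusted p = 0.0532). TRBV14 did not differ before HCT beyond the spread, at -0.03 (adjusted p = 0.866), was higher in CD8 in liver, at 0.31 (adjusted p = 0.0279), and was higher in gut, at 1.51 (adjusted p = 1.41e-11). Without TRBV26 and TRBV23 the gut differences were 0.90 for TRBV14 (limma, adjusted p = 6.15e-07) and -1.53 for TRBV20 (adjusted p = 1.62e-05). The liver call of TRBV14 was lost, at 0.27 to 0.29, without STAT3ko liver replicate 1 or WT liver replicate 2 of either lineage, or STAT3ko liver replicate 2 of CD8. It was also lost over all reads (0.38, limma, adjusted p = 0.103), without TRBV26 and TRBV23 (0.14, adjusted p = 0.330), with CDR3 from C to F or W (0.19, adjusted p = 0.198), with clonotypes of at least 3 libraries (0.20, adjusted p = 0.212) and without the liver replicate 1 libraries (0.32, adjusted p = 0.146). With each clonotype counted once, TRBV14 was already higher in CD8 before HCT, at 0.73 (adjusted p = 3.32e-09).

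TRBV4 was lower in CD8 before HCT, where it was 2.11%, 2.13% and 2.61% against 3.07%, 3.29% and 3.58% in CD4. CD8 minus CD4 was -0.52 (limma, adjusted p = 0.00618) before HCT and -0.28 (adjusted p = 0.0269) in liver, with no overlap of ranges at either site. The liver call of TRBV4 was lost, at -0.25 to -0.24, without STAT3ko or STAT3koPD-1ko liver replicate 1 of CD4 or WT liver replicate 2 of CD8. In gut it was 0.08 and did not pass, but it was -0.52 and passed without TRBV26 and TRBV23. With each clonotype counted once the sign of TRBV4 turned at both sites, at 0.04 (limma, adjusted p = 0.632) before HCT and 0.17 (adjusted p = 0.00940) in liver. The liver value also turned with the centred log-ratio, at 0.03 (adjusted p = 0.806), where the value before HCT was -0.25 and did not pass (adjusted p = 0.175). Over all reads both TRBV4 calls were lost, at -0.46 before HCT (limma, adjusted p = 0.0904) and -0.22 in liver (adjusted p = 0.222), and without the liver replicate 1 libraries the liver value was -0.25 (adjusted p = 0.1796). TRBV3 did not pass at any site as a share of all listed reads (limma), although its 3 CD8 values before HCT (2.68% to 3.16%) exceeded the 3 CD4 values (2.16% to 2.60%). In gut it was lower in CD8 and passed without TRBV26 and TRBV23, at -0.72 (limma, adjusted p = 5.62e-06), and with CDR3 from C to F or W, at -0.52 (adjusted p = 0.000385). On the former total its gut usage was 4.77% ± 1.41 (n = 6) in CD4 and 2.77% ± 0.305 (n = 6) in CD8. For TRBV30 the fits without the filter gave 0.52, 0.52 and 0.38 before HCT, in liver and in gut, and none passed (lowest adjusted p 0.133). The gut value was 0.07 (limma, adjusted p = 0.871) without TRBV26 and TRBV23. Of the 4 tested segments, 2 passed before HCT, where 76.2% of 21 segments did (5 higher and 11 lower, but 7 and 9 with the centred log-ratio), 3 in liver, where 90.5% did, and 2 in gut, where 90.5% did.

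With all libraries no member passed the test between genotypes on day 6. STAT3ko minus WT and STAT3koPD-1ko minus STAT3ko called 0% of segments in CD4 and in CD8 with limma. Before adjustment 0 and 4 of 21 segments were below 0.05 in CD4, and 1 and 3 of 18 in CD8. The one member among them was TRBV3 in CD4, whose usage in the 4 day 6 libraries was 3.22% to 3.93% in STAT3koPD-1ko, 2.09% to 3.85% in STAT3ko and 1.97% to 2.71% in WT. The ranges of STAT3koPD-1ko and STAT3ko overlapped, and STAT3koPD-1ko against WT was not tested for any segment. STAT3koPD-1ko minus STAT3ko was 0.41 and did not pass after adjustment (limma, adjusted p = 0.236), but it was 0.54 and passed without the gut replicate 2 libraries (adjusted p = 0.0357). TRBV30 in CD4, outside that count, had 0% to 0.164% in STAT3koPD-1ko and 0.140% to 0.453% in STAT3ko (-1.02 without the filter, adjusted p = 0.154). In CD8, TRBV14 was 7.72% to 10.9% in WT, 7.96% to 9.22% in STAT3ko and 6.52% to 9.85% in STAT3koPD-1ko, and the 3 ranges overlapped.

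The CDR3 of TRBV3 and TRBV4 were longer in CD8 than in CD4 T cells. Weighted by frequency, the mean length of TRBV3 was 13.8 residues in CD4 and 14.2 in CD8, a difference of 0.32 residues (SE 0.0452, limma, adjusted p = 9.02e-07). TRBV4 went from 13.5 to 13.7 residues, a difference of 0.30 in the fit with site and genotype (SE 0.0540, adjusted p = 2.01e-05). TRBV14 had 13.3 residues in both, with a difference of -0.01 that turned to 0.15 (adjusted p = 0.000385) with each clonotype counted once. CDR3 of 13 residues took 17.1% of TRBV14 usage in CD8 and 30.2% in CD4, which was not tested. TRBV20 had 13.1 residues in CD4 and differed by -0.03 residues in CD8. Thus 2 of 4 passed, where 65% of 20 segments did. Between gut and liver no member passed in CD4 or CD8, where 0% of segments passed with limma and 1 of 20 and 3 of 17 were below 0.05 before adjustment.

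**Figure D4:**
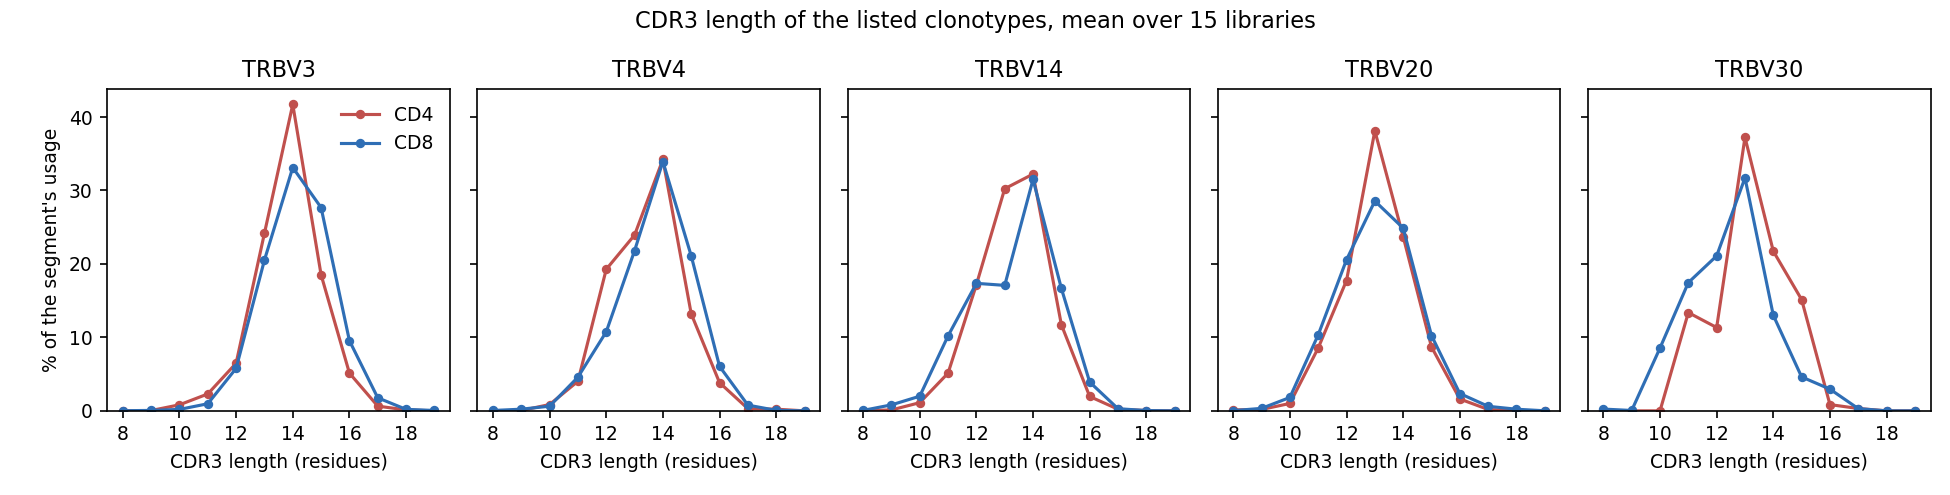
Share of the usage of each segment (percent, vertical axis) by CDR3 length in residues (horizontal axis) for CD4 and CD8, from the mean frequencies over 15 libraries. The CD8 curves of TRBV3 and TRBV4 hold more of the lengths from 15 residues up, with mean lengths of 14.2 against 13.8 and 13.7 against 13.5 residues.

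The same segments, like most of those tested, joined more often to TRBJ2 segments, the J cluster behind the D2 segment, in CD8. The TRBJ2 share of TRBV3 usage was 66.0% in CD4 and 75.9% in CD8, a difference of 9.85 percentage points (limma, adjusted p = 0.000240). For TRBV4 the shares were 68.0% and 78.6%, a difference of 10.6 points (adjusted p = 0.000128), and for TRBV14 70.3% and 76.3%, a difference of 6.00 points (adjusted p = 0.0145). TRBV20 had 63.5% and 58.8%, and its difference of -4.74 points did not pass (adjusted p = 0.151). Here 3 of 4 passed, where 66.7% of 21 segments did (13 higher and 1 lower in CD8). The median difference was 7.92 points for the 4 and 5.69 points for all 21. TRBJ2-7 alone made up 20.1% of TRBV14 usage in CD4 and 30.5% in CD8, against 17.7% and 25.7% over all segments, and was not tested. Gut minus liver passed for none of the 4, where 4.76% of segments passed in CD4 and 0% in CD8 (limma, with 4 of 21 and 3 of 18 below 0.05 before adjustment).

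TRBV14 clonotypes recurred in more libraries than those of the other 4 segments. Among CD4 clonotypes 43.4% of those with TRBV14 were found in at least 3 of 15 libraries, against 34.0% for TRBV3, 35.8% for TRBV4, 24.8% for TRBV20, 20.1% for TRBV30 and 35.8% over all segments. In CD8 the shares were 44.3%, 38.9%, 39.1%, 26.5%, 22.1% and 39.7%. Clonotypes found in 15 of 15 libraries numbered 6 for TRBV14, 4 for TRBV3 and 4 for TRBV4 in CD4, and 17, 3 and 9 in CD8, and TRBV20 and TRBV30 had 0 in either. The shares are over all listed clonotypes, of which 19 in CD4 and 11 in CD8 with these segments were at 0 in all 15 libraries, and they were not tested.

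**Figure D5:**
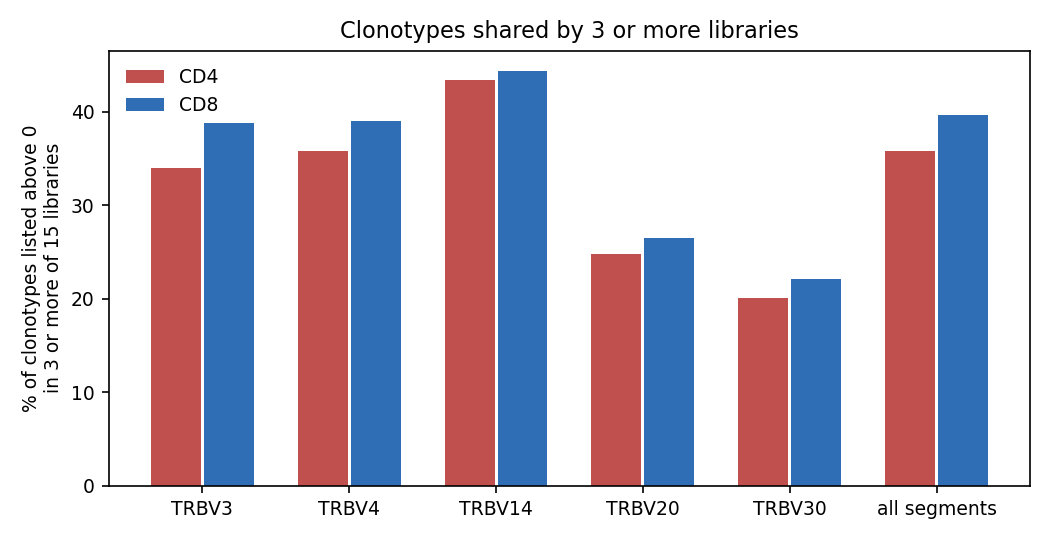
Percentage of the clonotypes of each segment that were listed above 0 in at least 3 of the 15 libraries, for CD4 and CD8, with all segments at the right. TRBV14 has the tallest bars (43.4% and 44.3%) and TRBV30 the shortest (20.1% and 22.1%).

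Single clonotypes show how V ends were joined, namely leading clonotypes by mean frequency and the most frequent TRBV14 and TRBV20 clonotypes found in both tables. They are given as the CDR3 bases of the tables, with capitals for the bases between the end of V and the start of J as the tables place them. The placed start of a J segment can vary, and for TRBJ2-7 it differs between the CD4 and CD8 sequences of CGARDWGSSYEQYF. Where a CDR3 was in both tables both sequences are shown.
TRBV14 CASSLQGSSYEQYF in CD4: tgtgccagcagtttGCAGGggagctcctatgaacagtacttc
TRBV14 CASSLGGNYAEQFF in CD8: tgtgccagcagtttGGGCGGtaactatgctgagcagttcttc
TRBV14 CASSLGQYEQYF in CD4: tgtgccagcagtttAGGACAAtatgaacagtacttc
TRBV14 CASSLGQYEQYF in CD8: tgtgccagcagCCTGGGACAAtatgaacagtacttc
TRBV20 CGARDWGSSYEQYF in CD4: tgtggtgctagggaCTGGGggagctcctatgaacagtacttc
TRBV20 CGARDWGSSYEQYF in CD8: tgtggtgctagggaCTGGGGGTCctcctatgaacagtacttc
TRBV4 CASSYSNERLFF in CD4: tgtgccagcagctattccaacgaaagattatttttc
TRBV3 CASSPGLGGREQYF in CD8: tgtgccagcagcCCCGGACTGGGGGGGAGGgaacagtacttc
The leading TRBV14 clonotype of CD4 was found in 14 of 15 libraries with a mean of 0.0806% of listed reads and a highest value of 0.377%, in STAT3ko gut replicate 2. That of CD8 was found in 15 of 15, from 0.0202% to 0.216%. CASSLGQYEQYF with TRBV14 was found in 14 CD4 and 15 CD8 libraries, but the base sequences of the 2 tables differ, and so do those of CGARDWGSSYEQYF with TRBV20 (13 CD4 and 8 CD8 libraries). Each table gives a single base sequence for a CDR3, and others that encode it are not shown. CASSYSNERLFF, with no base between V and J, reached 0.850% in WT gut replicate 2, which was 25.8% of TRBV4 usage in that library. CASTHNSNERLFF with TRBV3 was found in 2 CD4 libraries, both of gut, and reached 0.586% in STAT3ko gut replicate 2, which was 15.2% of TRBV3 usage there.

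Few clonotypes were common to CD4 and CD8. Those of TRBV14 in both tables numbered 236, which was 9.34% of its CD4 and 4.62% of its CD8 clonotypes. The shares were 5.05% and 9.09% for TRBV20 (117 clonotypes), 4.52% and 4.48% for TRBV3 (166) and 4.15% and 3.57% for TRBV4 (98). TRBV30 had 5 such clonotypes. Over all segments 7.32% of CD4 and 7.61% of CD8 clonotypes were in both tables.

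The segments whose usage most resembled that of each member were found by Pearson's r over the 15 libraries of a table, which share site, genotype and total. In CD4, TRBV14 was most like TRBV29 (r = 0.844) and TRBV20 most like TRBV14 (r = 0.791), while TRBV30 was most like TRBV20 (r = 0.815). TRBV4 was most like TRBV16 (r = 0.775) and TRBV3 most like TRBV15 (r = 0.669). In CD8, TRBV30 was again most like TRBV20 (r = 0.858), whereas TRBV14 was most like TRBV26 (r = 0.630).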

How the data were processed

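The authors prepared TCR-CDR3 libraries from RNA of sorted T cells with a 5' template-switching kit, called clonotypes with MiXCR and used VDJtools to join libraries by chain and lineage. The values are frequencies, deposited by the authors as a fraction of the reads of each library, formed before the join. The build given per the labels is mm10. The join lists clonotypes of at least 2 libraries, and the deposited tables also hold a number of libraries per clonotype (from 2 to 18, where 15 library columns were analysed here), which was used only to describe the join. No read counts were given and depth is unknown, so no counting interval was formed. The TCR alpha tables were not used here.

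The 5 segments, the gene lists and the tests were chosen with earlier results of these data known. Named segments were the 5 members and, for each, the 1 or 2 segments with the highest r. Named clonotypes were those of each member with the highest mean over 15 libraries, the highest mean among those in 15 of 15, and the highest of those in both tables. TRBJ2-7 was named after its values were seen.

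Usage in percent of listed reads, as log2(percent + 0.1), was fitted in limma (version 3.58.1, under R version 4.3.3). This scale understates changes of rare segments. Segments below a mean of 0.5% were left out. Gut minus liver and genotype tests used the 12 day 6 libraries of a table with tissue and genotype in the fit. Tests against T cells before HCT used 15 libraries, and CD8 minus CD4 used all 30. P-values were adjusted by the Benjamini-Hochberg method within a comparison, and a call was an adjusted p under 0.05. CDR3 length and TRBJ2 share were fitted untransformed. The fit of gut minus liver usage in CD4 was first tested on simulated data with independent noise. The other designs were given only a known effect with almost no noise. The shared total of usages was not simulated, nor were CDR3 length and TRBJ2 share. Alternatives were other pseudocounts (0.01 and 1), no filter, other totals, a centred log-ratio, each clonotype counted once, and leaving out libraries. CDR3 that run from C to F or W, and the omission of TRBV26 and TRBV23, were among these. TRBV4 without CDR3 that start with CAW was added after seeing the data, as were fits of TRBV30 with no filter on the total without TRBV26 and TRBV23 or without the gut replicate 2 libraries. Samples of liver and gut in CD8 were also paired by replicate number, which the labels do not tie to a batch, since the deviations of all 3 pairs correlated over 0.1 (0.126 to 0.303). As an alternative, a block by replicate number was also tried in the other tests, except those against T cells before HCT. For CD8 minus CD4 and the interaction it joined CD4 and CD8 libraries of the same genotype, site and number. Tables were read with pandas 2.3.3 and numpy 2.4.6 in Python 3.11.15, and figures were drawn with matplotlib 3.10.9. Segment ends and coordinates were read from GENCODE transcripts and annotation of GRCm38, the same assembly as mm10.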

Additional observations from a re-analysis of the deposited data

Results flagged for a closer look

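The gut minus liver difference of TRBV14 differed between the lineages, with a CD8 value that exceeded the CD4 value by 1.19 on the log2(percent + 0.1) scale. That difference was tested as an interaction over 30 libraries with limma. Refits without 1 library gave 1.06 to 1.27. In gut replicate 1 and 2 alike, CD8 libraries were above CD4 libraries, and without the gut replicate 2 libraries the value was 1.03 (limma, adjusted p = 3.06e-05). TRBV26 and TRBV23 took 36.1% of CD4 gut usage, and without them in the total the value was 0.77. A search for a single outlying library in 20 groups of 6 libraries (5 segments, 2 tissues, 2 lineages) found 0, where chance would give about 1 in 20.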

How the results depend on the processing

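Of the counts of members that passed, 20 comparisons were refitted under each alternative, and 526 refits gave a count within 1.5 times the first while 39 did not. Such a count ignores which members passed and in which direction, and 0 against 0 counted as kept. Without TRBV26 and TRBV23, gut minus liver and gut minus before HCT in CD4 were counted as kept. There TRBV14 stayed lower, but TRBV3 passed as higher and TRBV4 and TRBV20 no longer passed. For gut minus liver in CD4, 3 members passed (18 of 21 segments), and 1 did with clonotypes of at least 3 libraries (15 of 21), with CDR3 from C to F or W (9 of 21), or with each clonotype counted once (6 of 21). For gut minus liver in CD8, 1 passed (7 of 18 segments), and 0 did with a pseudocount of 0.01 (5 of 18), clonotypes of at least 3 libraries (2 of 18), CDR3 from C to F or W (4 of 18), each clonotype counted once (3 of 18), or without the liver replicate 1 libraries (0 of 18, limma). For gut minus before HCT in CD8, 2 passed (9 of 18), and 1 did over all reads, with each clonotype counted once, without the gut replicate 2 libraries or without the liver replicate 1 libraries (7 of 18 in each). For CD8 minus CD4 before HCT, 2 passed (16 of 21), and 1 did over all reads (14 of 21), where TRBV4 was lost. For CD8 minus CD4 in liver, 3 passed (19 of 21), and 1 did over all reads (17 of 21) or without liver replicate 1 (16 of 21), where TRBV4 and TRBV14 were lost. For CD8 minus CD4 in gut, 2 passed (19 of 21), and 4 did without TRBV26 and TRBV23 (16 of 19) or with CDR3 from C to F or W (18 of 21). For the interaction of lineage and tissue, 1 passed (12 of 21), and 2 did without TRBV26 and TRBV23 (5 of 19) or without gut replicate 2 (12 of 21). For STAT3koPD-1ko minus STAT3ko in CD4, 0 passed (0 of 21, limma), and 1 did without gut replicate 2 (1 of 21). The cause of these changes was not tested. In refits without 1 library the counts ran from 2 to 3 (gut minus liver, CD4), 0 to 2 (gut minus liver, CD8), 2 to 3 and 0 to 3 (gut minus before HCT, CD4 and CD8), 1 to 2, 1 to 3 and 2 to 2 (CD8 minus CD4 before HCT, in liver and in gut) and 1 to 2 (interaction). Depth is unknown, and what it limits could not be measured.

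With the replicate block, 2 members passed for gut minus liver in CD8 and 2 for the interaction, where 1 passed without it in each (10 of 18 and 15 of 21 segments with it). The block joined liver and gut of the same genotype and number in the former. In the latter it joined CD4 and CD8 of the same genotype, site and number. The members gained were TRBV20 in the former (-0.55, limma, adjusted p = 0.0382) and TRBV4 in the latter (0.37, adjusted p = 0.0268). The block changed no other count by over 1.5 times. Deviations of same-numbered samples correlated over 0.1 in all 3 pairs of liver and gut in CD8 (0.126 to 0.303), where the numbers were taken to pair the samples. Elsewhere they were not, since not all pairs correlated over 0.1. Between liver and gut in CD4 the correlation was 0.0111 to 0.176 (1 of 3 over 0.1). Between CD4 and CD8 it was -0.136 to 0.321 in liver and 0.409 to 0.637 in gut (5 of 6 over 0.1). All pairs of CD4 and CD8 in gut were thus over 0.1. The main fits of CD8 minus CD4 and of the interaction still took the 30 libraries as independent. Between genotypes the deviations correlated at -0.294 to 0.866 (8 of 12), with all 6 gut pairs at 0.358 or more. The main fits held no term for the replicate number. Their p-values for gut therefore do not allow for deviations that same-numbered gut libraries share. The labels and methods do not say that a number marks a batch. Tests against T cells before HCT had no block, with 1 library per genotype.

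Of the values of single members, 2068 recomputed values kept direction and, where tested, side of the threshold, 61 lost the call, 22 gained it, 115 turned sign, mostly of values near 0, and 1 with no test moved (5.29% against 2.85%, the share of TRBV14 among clonotypes of CD4 gut rare before HCT). Over all reads, the log2 differences that turned sign were -0.42 (TRBV3) in CD4 and -0.17 (TRBV14) in CD8 for gut minus liver, -0.26 (TRBV3, CD4), -0.073 (TRBV14, CD8) and -0.31 (TRBV4, CD8) for gut minus before HCT, 0.033 (TRBV14 before HCT), 0.021 (TRBV3, liver) and 0.0097 (TRBV3, gut) for CD8 minus CD4, and 0.00079 (TRBV3) for STAT3ko minus WT in CD8. Without TRBV26 and TRBV23 they were 0.06 (CD4) for TRBV4 and 0.00047 (CD8) for TRBV3 in gut minus liver, 0.068 and 0.0082 for TRBV4 in CD4 gut and liver against before HCT, -0.52 (TRBV4) for CD8 minus CD4 in gut, and -0.039 (TRBV20) and -0.061 (TRBV4) for the interaction. With CDR3 from C to F or W they were -0.32 for TRBV4 in CD8 minus CD4 in gut, and 0.0034 (TRBV3) and 0.0025 (TRBV4) for gut minus liver in CD8. With the centred log-ratio they were 0.24 (TRBV14 before HCT), 0.048 (TRBV3, gut), 0.27 (TRBV3, liver) and 0.029 (TRBV4, liver) for CD8 minus CD4, and 0.054 (TRBV3) and 0.053 (TRBV4) for gut minus liver in CD8. With clonotypes of at least 3 libraries they were 0.025 (TRBV14, CD8 minus CD4 before HCT), -0.20 (TRBV20), 0.012 (TRBV3) and -0.057 (TRBV4) for STAT3ko minus WT in CD8, 0.024 (TRBV14) for STAT3koPD-1ko minus STAT3ko in CD4 and 0.015 (TRBV3) for gut minus liver in CD8. With each clonotype counted once they were 0.73 (TRBV14) and 0.041 (TRBV4) before HCT and 0.019 (TRBV3) and 0.17 (TRBV4) in liver for CD8 minus CD4, 0.064 (TRBV14) for STAT3koPD-1ko minus STAT3ko in CD8 and -0.012 (TRBV4) for gut minus before HCT in CD8. In residues of CDR3 length they were 0.15 (TRBV14, CD8 minus CD4), -0.085 (TRBV14) and -0.062 (TRBV4) for gut minus liver in CD4, and in TRBJ2 share -3.02 points (TRBV20, CD4) and 0.024 points (TRBV4, CD8). Without the gut replicate 2 libraries, usage differences that turned sign were -0.018 (TRBV3, CD4), 0.038 (TRBV20), 0.056 (TRBV3) and 0.060 (TRBV4, CD8) for gut minus liver, 0.032 (TRBV3) for CD8 minus CD4 in gut, -0.11 (TRBV3) for STAT3ko minus WT in CD4, 0.067 (TRBV14, CD4) and 0.092 (TRBV4, CD8) for STAT3koPD-1ko minus STAT3ko, and 0.074 (TRBV3) for the interaction. CDR3 length differences without these libraries were 0.012 (TRBV14) and 0.036 (TRBV20) for CD8 minus CD4, and 0.011 (TRBV3, CD4), 0.00078 (TRBV20, CD8) and 0.060 (TRBV3, CD8) for gut minus liver, and gut minus liver differences of TRBJ2 share were 2.06 points (TRBV4, CD4) and -0.15 points (TRBV3, CD8). Without the liver replicate 1 libraries they were 0.052 (TRBV14) for STAT3koPD-1ko minus STAT3ko in CD8, and 0.068 (TRBV3) and 0.026 (TRBV4) for gut minus liver in CD8. In refits without 1 library, usage differences that turned sign in at least 1 refit ran from -0.056 to 0.16 (TRBV3, gut minus liver, CD4), -0.066 to 0.026 (TRBV3) and -0.070 to 0.096 (TRBV4) for the same in CD8, -0.0071 to 0.30 (TRBV14, liver minus before HCT, CD8), -0.024 to 0.29 (TRBV3, STAT3ko minus WT, CD4), -0.12 to 0.035 (TRBV3), -0.033 to 0.078 (TRBV4) and -0.17 to 0.32 (TRBV20) for the same in CD8, -0.23 to 0.14 (TRBV14, STAT3koPD-1ko minus STAT3ko, CD4), -0.15 to 0.099 (TRBV4) and -0.14 to 0.019 (TRBV14) for the same in CD8, -0.20 to 0.083 (TRBV14, CD8 minus CD4 before HCT) and -0.17 to 0.033 (TRBV3, interaction). CDR3 length differences ran from -0.032 to 0.075 (TRBV4) and -0.0095 to 0.071 (TRBV14) for gut minus liver in CD4 and from -0.020 to 0.016 (TRBV14) and -0.051 to 0.011 (TRBV20) for CD8 minus CD4. TRBJ2 shares in CD4 gut minus liver ran from -5.29 to 0.014 points (TRBV4) and -1.12 to 5.10 points (TRBV20). The cause of these turns was not tested.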

Other observations

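Clonotypes that were rare before HCT and common on day 6 (a mean fraction below 1e-05 over the 3 libraries before HCT and above 0.0001 in the 2 libraries of a genotype and tissue) were counted over the 3 genotypes, so that a clonotype of several genotypes counts more than once. TRBV14 made up 173 of 2302 such clonotypes (7.52%) in CD4 liver and 58 of 2032 (2.85%) in CD4 gut, but 268 of 2756 (9.72%) in CD8 liver and 213 of 1777 (11.99%) in CD8 gut. By genotype its share was 5.76% to 9.56% in CD4 liver and 2.31% to 4.30% in CD4 gut, and 8.32% to 12.2% and 9.01% to 14.9% in CD8. TRBV20 made up 2.30% in CD4 liver and 0.787% in CD4 gut, and TRBV4 3.04% and 1.92%. TRBV3 had 1.91% in CD4 liver and 3.20% in CD4 gut. Without TRBV26 and TRBV23 among the clonotypes counted, TRBV14 made up 7.92% in CD4 liver and 5.29% in CD4 gut, and its ranges by genotype overlapped (6.03% to 10.2% and 4.29% to 7.72%). On that total TRBV20 had 2.43% and 1.46%, TRBV3 had 2.02% and 5.93%, and TRBV4 was no longer lower in gut, with 3.21% and 3.56%. TRBV30 had 12 such clonotypes in CD4 liver and 3 in CD4 gut, and 26 and 3 in CD8. These counts rest on the same libraries as the usages above and were not tested, and those without TRBV26 and TRBV23 were added after seeing the data.

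A CDR3 that starts with CAW was assigned to TRBV4 in 178 of 2362 CD4 clonotypes (7.54%) and 56 of 2742 CD8 clonotypes (2.04%), among those whose CDR3 runs from C to F or W, although the end of Trbv4 shown above encodes CASS. Over all segments 2459 CD4 clonotypes started with CAW, of which 1300 were assigned to TRBV22 and 410 to TRBV17. They took 1.64% ± 0.543 (SD, n = 3) of TRBV4 usage in CD4 before HCT, 1.61% ± 0.169 (n = 6) in liver and 1.54% ± 0.496 (n = 6) in gut. Leaving them out of TRBV4 gave CD8 minus CD4 differences of -0.50 before HCT (limma, adjusted p = 0.00849) and -0.27 in liver (adjusted p = 0.0363). That alternative was chosen after seeing the data.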
